A study of Mus musculus with 9 samples.

Results

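The genes described are 10 members of the fibroblast growth factor (FGF) pathway, the ligands Fgf4, Fgf5, Fgf8, Fgf15, Fgf17 and Fgf10 and the receptors Fgfr1, Fgfr2, Fgfr3 and Fgfr4. They were taken by symbol from the 33233 genes of the count files, and each symbol matched 1 gene. RNA came from mouse KH2 embryonic stem (ES) cells grown with Lif, the cytokine that sustains self-renewal, on feeder cells that were taken off before extraction. The 3 groups of 3 libraries were labelled wild type, CBFA2T2 knockout and PRDM14 knockout. CBFA2T2, also called MTGR1, works as a transcriptional co-repressor, and PRDM14 is a DNA-binding protein found in pluripotent and primordial germ cells. Both knockout-labelled groups are compared with the same wild-type libraries. The labels do not say how the alleles were made, whether a line is 1 clone, or whether replicates were separate clones or cultures, so p-values measure only the spread between these libraries.

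FGF ligands are secreted proteins that bind FGF receptors, which are tyrosine kinases, with heparan sulfate as a partner, and pass the signal on through RAS and the kinase ERK. In mouse ES cells Fgf4 is the ligand the cells make for themselves, and ERK activity moves them away from the naive state. Fgfr1 is the receptor of the pluripotent epiblast, while Fgfr2 is known from primitive endoderm and trophoblast. The receptor genes are spliced into isoforms with different ligand preference, and counts per gene do not tell these apart.

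Total counts were 10309196 to 20129490 per library. In CPM (counts relative to library size, with TMM factors between libraries), Cbfa2t2 fell in the CBFA2T2 knockout but was still at 44.9 to 99.2 against 160 to 177 in wild type (edgeR, adjusted p = 0.00753). Prdm14 rose in the libraries labelled PRDM14 knockout, at 41.4 to 63.5 CPM against 14.6 to 18.4 in wild type (adjusted p = 3.46e-05), which goes against the label as far as RNA level goes. It also rose in the CBFA2T2 knockout, at 55.0 to 67.6 CPM (adjusted p = 6.83e-06). A deleted exon cannot be read from gene-level counts, so the group labelled PRDM14 knockout is called PRDM14-labelled, the 2 groups together are called knockout-labelled, and every direction given for the PRDM14-labelled libraries rests on the label. Beside the results below stand sums over marker lists, with counts of the markers that rose or fell. Among all 16532 genes tested, 18.9% rose and 19.6% fell in the CBFA2T2 knockout. In the PRDM14-labelled libraries 14.6% rose and 15.3% fell. The 9 markers of pluripotent cells summed to 4769 to 4867 CPM in wild type, 3281 to 3862 in the CBFA2T2 knockout and 4302 to 4956 in the PRDM14-labelled libraries, and of these 2 rose and 5 fell in the first knockout-labelled group and 2 rose and 4 fell in the second, the order used from here on. The 16 markers of feeder fibroblasts summed to 1294 to 1349, 1614 to 2782 and 1526 to 2798 CPM. Of the 15 that passed the filter on low counts, 6 and 4 rose and 0 fell. Among those that rose in both, Col1a1 went from 98.8 ± 13.2 CPM to 374 ± 172 and 382 ± 174, Acta2 from 37.2 ± 8.83 to 197 ± 91.0 and 157 ± 66.5, and Tagln from 19.1 ± 4.62 to 238 ± 104 and 112 ± 70.9 (SD, n = 3 each). Fn1, the most abundant, was not called (log2 -0.10 and 0.16), and Lum and Dcn were at most at 0.30 and 2.31 CPM in any library. The 10 trophoblast markers summed to 108 to 122, 444 to 971 and 179 to 349 CPM, with 5 up and 1 down of 9, and 4 up and 0 down; Krt8 was the most abundant in the CBFA2T2 knockout, and Elf5 was at most at 0.114 CPM in any library. The 8 primitive endoderm markers summed to 51.2 to 64.9, 102 to 165 and 84.4 to 178 CPM, with 3 up and 1 down, and 2 up and 1 down. The 7 formative and primed epiblast markers, Fgf5 among them, summed to 723 to 841, 287 to 315 and 286 to 305 CPM, with 0 up and 5 down, and 0 up and 6 down, of 6.

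FGF ligand RNA was lower and receptor RNA higher in both knockout-labelled groups than in wild type. Per length (CPM per 1000 bases of exon), the 6 ligands together were at 117, 124 and 135 in the wild-type libraries, 65.6, 64.7 and 53.8 in the CBFA2T2 knockout, and 92.6, 87.6 and 87.8 in the PRDM14-labelled libraries. The 4 receptors together were at 18.6, 17.3 and 18.8 in wild type, 35.4, 37.6 and 34.9 in the CBFA2T2 knockout and 32.4, 30.1 and 29.1 in the PRDM14-labelled libraries. Neither sum overlapped between a knockout-labelled group and wild type, and these sums follow mainly Fgf4 and Fgfr1, the most abundant member on each side. In bulk RNA, fewer cells that make a transcript and less of it per cell cannot be told apart.

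Of the 10 members, in the CBFA2T2 knockout 6 fell, 3 rose and 1 missed the threshold, where a call is an adjusted p under 0.05 by edgeR's quasi-likelihood test. Among all 16532 genes tested, 19.6% fell and 18.9% rose in that comparison. In the PRDM14-labelled libraries 5 members fell, 3 rose and 2 missed the threshold, against 15.3% and 14.6% of all genes. The libraries of the compared groups did not overlap for 10 of 10 members in the CBFA2T2 knockout (53.7% of all genes) and for 8 of 10 in the PRDM14-labelled group (45.1%). The median log2 fold change over the members was -1.01 and -0.53, beside 0.01 and 0.02 over all genes.

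**Figure D1:**
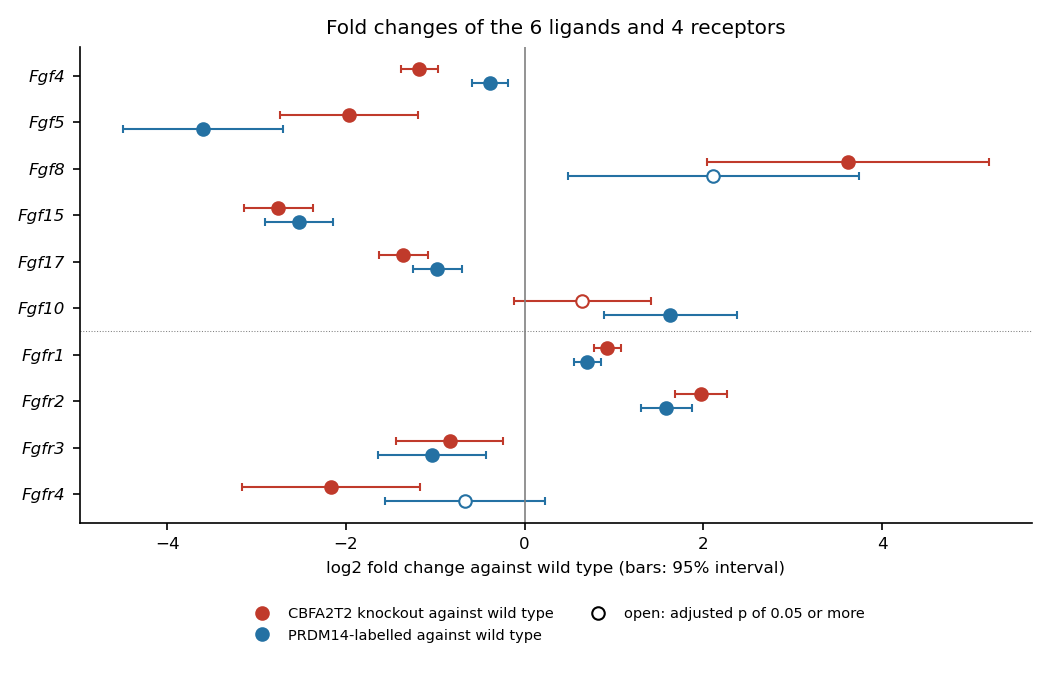
Log2 fold change (x axis) of each ligand and receptor against wild type in the CBFA2T2 knockout (red) and the PRDM14-labelled libraries (blue), with bars for the 95% interval and open points where the adjusted p was 0.05 or more. Fgf4, Fgf5, Fgf15, Fgf17 and Fgfr3 lie to the left of 0 and Fgfr1 and Fgfr2 to the right in both comparisons, which share the wild-type libraries.

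Promoter sequences of RefSeq (build GRCm38.p6, 250 bases before to 50 after the start, 5′ to 3′ on the gene's strand) were matched for 6 of the 10 members, the others being Fgf8, Fgf15, Fgf17 and Fgfr1. They are shown for Fgf4, the ligand with the most RNA per length in each group, for Fgf5 and for Fgfr2. Fgf5 had the lowest log2 fold change of any member in the PRDM14-labelled libraries (-3.60). In the CBFA2T2 knockout that of Fgf15 was the lowest (-2.75, against -1.96 for Fgf5). Fgfr2 had the highest fold change of the receptors in both comparisons with wild type. Capitals mark matches, on either strand, to a GC box spelled GGGCGG, to a CCAAT box of just those 5 letters or to a TATA box spelled TATAAA, and no matches overlap in these 3 windows.
Fgf4, chr7:144861136-144861435, plus strand: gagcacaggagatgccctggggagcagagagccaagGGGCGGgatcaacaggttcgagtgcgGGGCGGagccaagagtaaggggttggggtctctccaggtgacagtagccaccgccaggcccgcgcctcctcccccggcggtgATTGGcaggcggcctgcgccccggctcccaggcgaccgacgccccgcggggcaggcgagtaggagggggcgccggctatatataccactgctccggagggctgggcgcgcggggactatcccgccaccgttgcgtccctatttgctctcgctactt
Fgf5, chr5:98253934-98254233, plus strand: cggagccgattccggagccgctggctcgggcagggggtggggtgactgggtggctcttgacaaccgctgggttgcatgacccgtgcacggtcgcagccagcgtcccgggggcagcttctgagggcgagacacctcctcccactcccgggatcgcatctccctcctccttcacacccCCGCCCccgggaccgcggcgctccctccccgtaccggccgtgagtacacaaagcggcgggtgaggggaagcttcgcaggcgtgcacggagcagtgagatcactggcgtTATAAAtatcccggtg
Fgfr2, chr7:130266759-130267058, minus strand: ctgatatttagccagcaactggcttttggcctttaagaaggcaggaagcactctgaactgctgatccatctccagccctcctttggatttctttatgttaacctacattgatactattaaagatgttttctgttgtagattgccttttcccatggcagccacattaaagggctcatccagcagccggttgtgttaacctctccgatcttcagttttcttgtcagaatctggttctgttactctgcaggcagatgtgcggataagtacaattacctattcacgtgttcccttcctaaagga

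The Fgf4 and Fgf5 windows were rich in G and C (69.7% and 68.3%, with 28 and 29 CG pairs), and that of Fgfr2 was not (43.7%, 4 CG pairs), where the median over 32851 promoters was 52.7%. Fgf4 held 2 GC boxes and 1 CCAAT box, Fgf5 held 1 GC box and 1 TATA box, and Fgfr2 held no match. A GC box was in 35.7% of all these promoters, a CCAAT box in 37.4% and a TATA box in 13.6%. The table held 1 start for each of these genes, and a match describes letters, not binding.

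Fgf4 (ENSMUSG00000050917, GRCm38 chromosome 7, 144861386 to 144865243), the ES cell ligand, had the most RNA per exon length of the members in each group and fell in both knockout-labelled groups. With the longest transcript as length, Fgfr1 (56.8 CPM per 1000 bases) stood above Fgf4 (44.2) in the CBFA2T2 knockout. Fgf4 was at 289, 292 and 328 CPM in wild type, 146, 140 and 115 in the CBFA2T2 knockout and 247, 214 and 234 in the PRDM14-labelled libraries. The 3 groups did not overlap, with the PRDM14-labelled libraries between the other two. The log2 fold change was -1.18 ± 0.10 (SE) in the CBFA2T2 knockout (adjusted p = 1.43e-06) and -0.39 ± 0.09 in the PRDM14-labelled libraries (adjusted p = 0.0074). Without wild-type replicate 3 the latter was -0.32 and not called (adjusted p = 0.0515). The knockout-labelled groups differed from each other: Fgf4 was lower in the CBFA2T2 knockout (-0.79 ± 0.10, adjusted p = 0.00214). It was the 1 member called in that comparison, where 0.853% of all genes were called.

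Fgf15 (ENSMUSG00000031073, chromosome 7, 144896532 to 144900953), the mouse counterpart of human FGF19 and known as a hormone of the ileum that restrains bile acid synthesis, had a fall of similar size in both groups. Its levels were 19.5, 20.9 and 25.0 CPM in wild type, 3.56, 2.88 and 3.26 in the CBFA2T2 knockout and 4.20, 3.58 and 3.56 in the PRDM14-labelled libraries. Every knockout-labelled library was well below the lowest wild-type library. The log2 fold changes were -2.75 ± 0.18 (adjusted p = 2.8e-07) and -2.52 ± 0.18 (adjusted p = 8.14e-07). The difference between the knockout-labelled groups was -0.23, with a 95% interval of -0.63 to 0.17 (adjusted p = 0.613).

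Fgf4 and Fgf15 lie 31289 bases apart on chromosome 7, in a cluster with Fgf3. Of the 5 genes of the files within 100 kb of Fgf4, Fgf4 included (a window chosen after the values were seen), 3 fell and 2 were not called in each knockout-labelled group. Over all genes 19.6% and 15.3% fell. Fgf4 sets the window, and Fgf4 and Fgf15 are members already given as falling, so the count cannot show a trait of the locus. Of the genes that are not members, Ccnd1 fell, and Oraov1 and Fgf3 were not called. Ccnd1, which encodes the G1 cyclin D1 and lies 64688 bases from Fgf4, went from 304 ± 9.41 to 145 ± 13.0 CPM in the CBFA2T2 knockout and to 155 ± 13.6 in the PRDM14-labelled libraries (SD, n = 3 each). It fell by 1.07 and 0.97 on the log2 scale (adjusted p = 1.36e-06 and 4.7e-06). Oraov1, between Fgf15 and Ccnd1 and overlapping the body of Ccnd1, was at 8.55 ± 0.87 CPM in wild type and was not called (log2 0.24 and 0.15, adjusted p = 0.34 and 0.578). Fgf3, a ligand known from inner ear and tail development, was not called either (log2 -0.30 and 1.00, adjusted p = 0.702 and 0.163), at 0.688 ± 0.061 CPM in wild type.

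**Figure D2:**
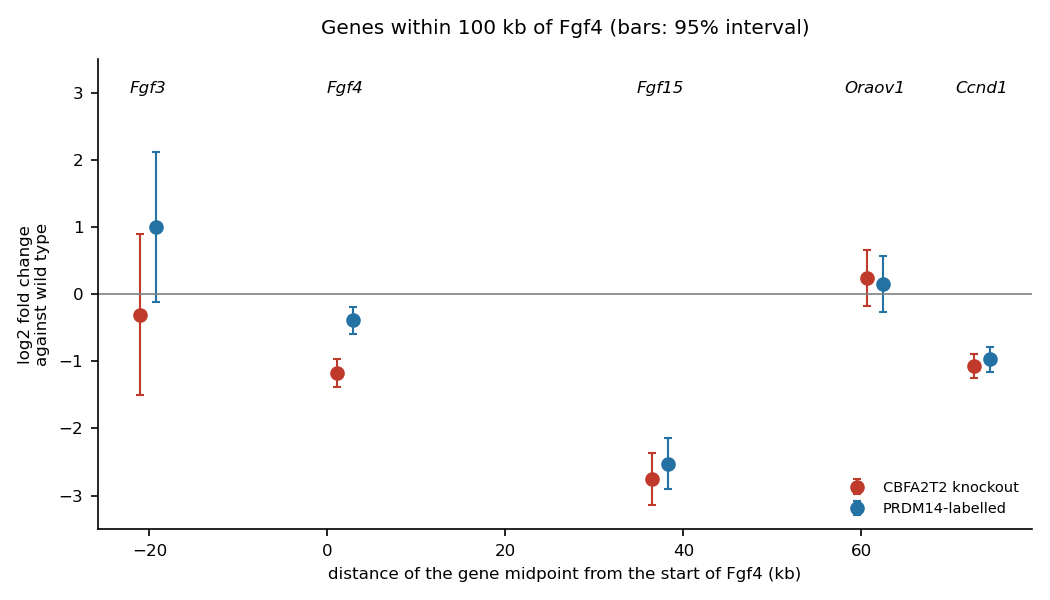
Log2 fold change against wild type (y axis) of the 5 genes within 100 kb of Fgf4, by the distance of each gene's midpoint from the start of Fgf4 (x axis, kb), for the CBFA2T2 knockout (red) and the PRDM14-labelled libraries (blue). Bars are 95% intervals, and the 2 colours are set slightly apart for legibility. Fgf4, Fgf15 and Ccnd1 lie below 0 in both, while the intervals of Fgf3 and Oraov1 include 0.

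Fgf5 (ENSMUSG00000029337, chromosome 5, 98254184 to 98277030), a marker of the formative and primed epiblast, was low in wild type and lower in both knockout-labelled groups. Wild-type libraries had 47, 41 and 86 counts (2.68, 4.10 and 5.94 CPM), CBFA2T2 knockout libraries 20, 24 and 12 counts (1.13, 1.15 and 0.93 CPM) and PRDM14-labelled libraries 7, 6 and 4 counts (0.41, 0.36 and 0.25 CPM). The 3 groups did not overlap. The log2 fold change of Fgf5 was -1.96 ± 0.36 in the CBFA2T2 knockout (adjusted p = 0.000808) and -3.60 ± 0.42 in the PRDM14-labelled libraries (adjusted p = 3.69e-05), and both were falls by the test. The difference between the knockout-labelled groups (log2 1.63, 95% interval 0.68 to 2.59) was not called over all genes (adjusted p = 0.0984). Of the other markers on the list of formative and primed genes, Lef1, Dnmt3b, Zic2 and Otx2 also fell in both, Sall2 fell in the PRDM14-labelled libraries (log2 -0.86, adjusted p = 0.00485) but missed the threshold in the CBFA2T2 knockout (-0.30, adjusted p = 0.231), and Pou3f1 had 0 counts in every library.

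Fgf8 and Fgf17 belong to the same subfamily, and in the CBFA2T2 knockout the first rose and the second fell. Fgf17 (ENSMUSG00000022101, chromosome 14, 70636205 to 70642268), known from midbrain and cerebellum development, was at 30.9, 38.3 and 34.3 CPM in wild type, 13.8, 12.9 and 13.5 in the CBFA2T2 knockout and 17.1, 20.0 and 15.4 in the PRDM14-labelled libraries. All knockout-labelled libraries were below all wild-type libraries. It fell by 1.36 ± 0.13 (log2, adjusted p = 4.57e-06) and by 0.98 ± 0.13 (adjusted p = 8.58e-05), and the knockout-labelled groups did not differ by the test (-0.38, 95% interval -0.66 to -0.10, adjusted p = 0.169).

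Fgf8 (ENSMUSG00000025219, chromosome 19, 45736798 to 45742915), a signal of the primitive streak that mesoderm cells need in order to move away from it, was low in wild type, with 14, 14 and 13 counts. It had 219, 309 and 124 counts in the CBFA2T2 knockout and 16, 140 and 57 counts in the PRDM14-labelled libraries. In CPM these were 0.80, 1.40 and 0.90 in wild type, 12.4, 14.8 and 9.62 in the CBFA2T2 knockout, and 0.93, 8.50 and 3.56 in the PRDM14-labelled libraries. All CBFA2T2 knockout libraries stood above the others, while PRDM14-labelled replicate 1 lay within the wild-type range. Fgf8 rose 12.3-fold in the CBFA2T2 knockout (log2 3.62 ± 0.69, adjusted p = 0.00345). Its log2 fold change of 2.11 ± 0.72 in the PRDM14-labelled libraries missed the threshold (95% interval 0.48 to 3.74, adjusted p = 0.0551). It was called without PRDM14-labelled replicate 1 (2.60, adjusted p = 0.000274) and with the DESeq2 Wald test (adjusted p = 0.019). With the replicate number as a block it was called too (adjusted p = 0.0264). It was also called among genes with a mean of at least 5 CPM over all 9 libraries (adjusted p = 0.0409). Fgf8 passed this filter only through its CBFA2T2 knockout mean of 12.3 CPM, as its wild-type and PRDM14-labelled means were 1.03 and 4.33. Without PRDM14-labelled replicate 2 the log2 fold change was 1.16. The knockout-labelled groups differed by 1.51 (adjusted p = 0.253), or by 2.46 without PRDM14-labelled replicate 2 (adjusted p = 0.0189). Within each knockout-labelled group, the library with most Fgf8 (replicate 2) also had the highest sums of trophoblast and fibroblast markers, 971 and 2782 CPM in the CBFA2T2 knockout and 349 and 2798 CPM in the PRDM14-labelled group, and the part of these cells in the result was not tested.

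Fgf10 (ENSMUSG00000021732, chromosome 13, 118669791 to 118792115), a ligand that mesenchyme sends to epithelia in limb and lung, was low in wild type and was called in 1 of the comparisons with it. It was at 3.31, 3.20 and 2.14 CPM in wild type, 3.90, 4.22 and 5.51 in the CBFA2T2 knockout and 14.2, 5.22 and 7.32 in the PRDM14-labelled libraries. PRDM14-labelled replicate 1 had the most, and both knockout-labelled groups lay above wild type without overlap. Fgf10 rose in the PRDM14-labelled libraries, with a log2 fold change of 1.63 ± 0.35 (adjusted p = 0.00346; 1.12 to 1.90 when 1 library was left out). The value for the CBFA2T2 knockout, 0.65 ± 0.35, missed the threshold (95% interval -0.12 to 1.41, adjusted p = 0.167). The difference between the knockout-labelled groups was -0.98 ± 0.33 (adjusted p = 0.166), and -1.26 without PRDM14-labelled replicate 2 (adjusted p = 0.0386). In PRDM14-labelled replicate 1 the fibroblast marker sum, 1526 CPM, was the lowest and the primitive endoderm sum, 178 CPM, the highest of the PRDM14-labelled group, and the part of these cells was not tested. Gm16263, on the other strand, shares 123 exon bases with Fgf10.

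**Figure D3:**
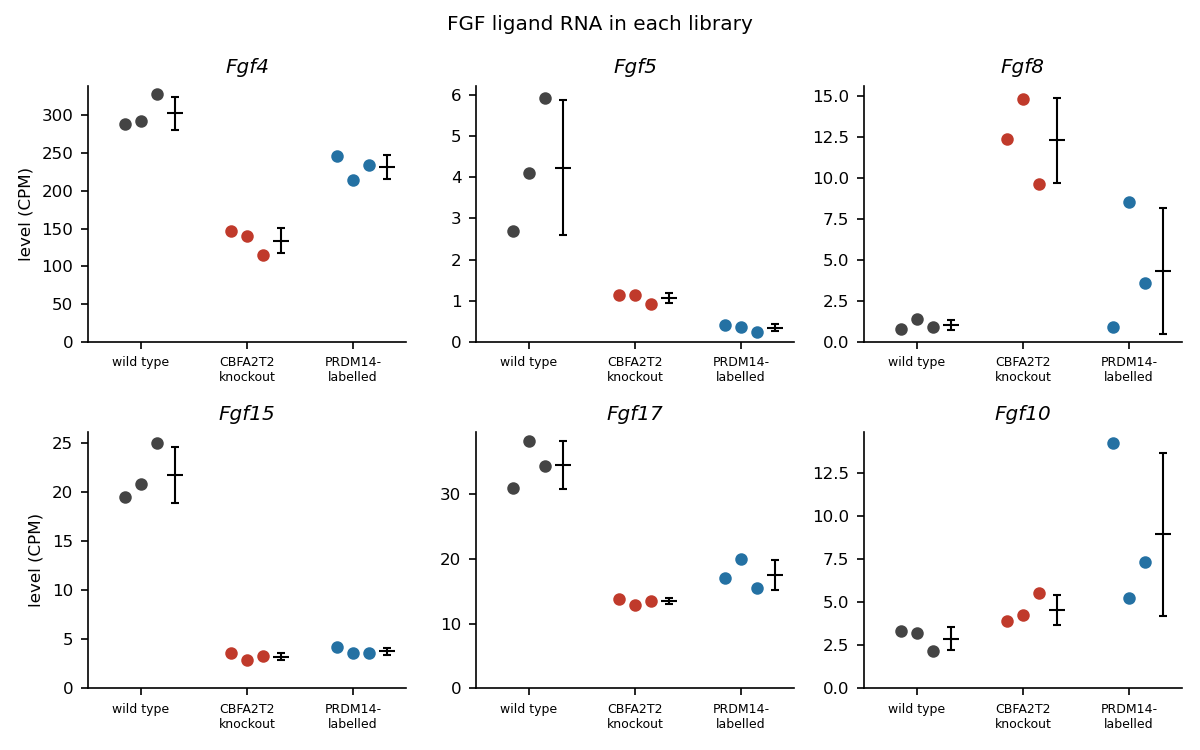
RNA level of each ligand (y axis, CPM from 0, with a scale of its own per panel) in the 9 libraries; each point is 1 library, and the black mark is the mean with its SD (n = 3). Fgf4, Fgf5, Fgf15 and Fgf17 are lower in every knockout-labelled library than in any wild-type library, Fgf8 is high in the CBFA2T2 knockout, and Fgf8 and Fgf10 spread widely in the PRDM14-labelled libraries.

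Fgfr1 and Fgfr2 rose in both knockout-labelled groups, Fgfr3 fell in both, and Fgfr4 fell in the CBFA2T2 knockout, with no call for the PRDM14-labelled libraries. Fgfr1 (ENSMUSG00000031565, chromosome 8, 25513654 to 25575714), the epiblast receptor, was at 155, 142 and 155 CPM in wild type, 281, 300 and 279 in the CBFA2T2 knockout and 249, 249 and 238 in the PRDM14-labelled libraries. The 3 groups were apart. It rose by 0.93 ± 0.07 (log2, adjusted p = 9.05e-07) and by 0.70 ± 0.07 (adjusted p = 9.64e-06). The difference between the knockout-labelled groups, 0.22 ± 0.07, was not called (adjusted p = 0.137). Gm16159, on the other strand, shares 164 of its 9875 exon bases.

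Fgfr2 (ENSMUSG00000030849, chromosome 7, 130162451 to 133123350), the receptor known from primitive endoderm and trophoblast, had the highest log2 fold change of the 4 receptors in both knockout-labelled groups. It was at 17.6, 14.9 and 18.02 CPM in wild type, 67.2, 68.9 and 63.4 in the CBFA2T2 knockout and 62.2, 43.5 and 46.9 in the PRDM14-labelled libraries. Every knockout-labelled library was far above the highest wild-type library. The knockout-labelled groups only just did not overlap (63.4 against 62.2 CPM). The rise was 3.93-fold in the CBFA2T2 knockout (log2 1.97 ± 0.13, adjusted p = 3.57e-07) and 3.00-fold in the PRDM14-labelled libraries (log2 1.59 ± 0.13, adjusted p = 3.52e-06). The knockout-labelled groups differed by 0.39 ± 0.13 (adjusted p = 0.152), and by 0.56 without PRDM14-labelled replicate 1 (adjusted p = 0.0228). The trophoblast and primitive endoderm marker sums given above were also higher in both knockout-labelled groups. In the PRDM14-labelled group, replicate 1 had the highest Fgfr2 and the highest primitive endoderm sum, while the trophoblast sum was highest, at 349 CPM, in replicate 2, which had the lowest Fgfr2. The CBFA2T2 knockout went otherwise: replicate 2 had the highest Fgfr2 and the highest trophoblast sum (971 CPM). Its primitive endoderm sum was highest in replicate 1 (165 CPM, against 157 in replicate 2). The part of these cells was not tested.

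The span of Fgfr2 in the files, 2960900 bases, overlaps 39 other genes. Its exons share bases with 1 of these, Ctbp2 on the same strand, over 314 of 10328 exon bases (3.04%). Ctbp2, which encodes a co-repressor, moved the other way: it was at 355 ± 6.47 CPM in wild type, 135 ± 6.20 in the CBFA2T2 knockout and 127 ± 19.2 in the PRDM14-labelled libraries (SD, n = 3 each), and fell by 1.39 and 1.48 on the log2 scale.

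Fgfr3 and Fgfr4, known from cartilage growth and from bile acid control in liver, were the scarce receptors. Fgfr3 (ENSMUSG00000054252, chromosome 5, 33721724 to 33737068) had 72, 51 and 75 counts in wild type, 46, 59 and 33 in the CBFA2T2 knockout and 57, 30 and 29 in the PRDM14-labelled libraries. In CPM all knockout-labelled libraries, at 1.81 to 3.32, were below all wild-type libraries, at 4.11 to 5.18. It fell by 0.84 ± 0.28 (log2, adjusted p = 0.0281) and by 1.04 ± 0.28 (adjusted p = 0.0131). In the CBFA2T2 knockout the call was lost without any 1 of its replicates 1, 2 and 3 (adjusted p = 0.0765, 0.0625 and 0.0666) and without wild-type replicates 2 and 3 (0.083 and 0.0968), with log2 fold changes of -0.88 to -0.77 in these 5 fits. In the PRDM14-labelled libraries it was lost without replicate 2 (-0.89, adjusted p = 0.0536) and without wild-type replicate 3 (-0.97, adjusted p = 0.0549).

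Fgfr4 (ENSMUSG00000005320, chromosome 13, 55152640 to 55168759) had 43, 28 and 31 counts in wild type, 5, 15 and 8 in the CBFA2T2 knockout and 42, 20 and 15 in the PRDM14-labelled libraries. In CPM these were 2.46, 2.80 and 2.14, then 0.28, 0.72 and 0.62, then 2.45, 1.21 and 0.94, so PRDM14-labelled replicate 1 lay within the wild-type range. Fgfr4 fell in the CBFA2T2 knockout (log2 -2.16 ± 0.46, adjusted p = 0.0024). In the PRDM14-labelled libraries it missed the threshold (-0.67, 95% interval -1.57 to 0.22, adjusted p = 0.247), and the difference between the knockout-labelled groups was -1.49 ± 0.47 (adjusted p = 0.143).

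Set side by side per length (CPM per 1000 bases of exon), the receptors kept Fgfr1 first and Fgfr2 second in every group. Fgfr1 was at 15.2 ± 0.79 in wild type, 29.0 ± 1.17 in the CBFA2T2 knockout and 24.8 ± 0.68 in the PRDM14-labelled libraries (SD, n = 3 each). Fgfr2 was at 1.63 ± 0.17, 6.44 ± 0.27 and 4.92 ± 0.96. Fgfr3 was at 0.67 ± 0.08, 0.37 ± 0.02 and 0.32 ± 0.12, and Fgfr4 at 0.70 ± 0.09, 0.15 ± 0.06 and 0.43 ± 0.23. Fgfr3 and Fgfr4 overlapped within wild type and also within the PRDM14-labelled group, and did not differ beyond their spread there, while Fgfr4 was below Fgfr3 in each CBFA2T2 knockout library. Library by library, Fgfr4 was above Fgfr3 in each PRDM14-labelled one (0.691 against 0.464, 0.343 against 0.255, and 0.265 against 0.253 CPM per 1000 bases of exon). With the longest transcript as length, the order of the means turned both in wild type, to 3.19% of receptor RNA for Fgfr3 and 2.10% for Fgfr4, and in the PRDM14-labelled group, to 0.88% and 0.74%.

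Fgfr2 made up a larger share of receptor RNA per length in both knockout-labelled groups. Its share was 9.17%, 8.34% and 9.28% in wild type, 18.4%, 17.7% and 17.6% in the CBFA2T2 knockout and 18.6%, 14.004% and 15.6% in the PRDM14-labelled libraries. Each knockout-labelled library exceeded each wild-type library. The mean difference was 8.98 percentage points for the CBFA2T2 knockout and 7.13 for the PRDM14-labelled libraries (two-sided exact permutation p = 0.1 each, the smallest that 3 against 3 libraries allow; 0.15 adjusted over the 3 comparisons). The knockout-labelled groups differed by 1.84 points (exact permutation p = 0.4). The share of Fgfr1 was 83.6% ± 0.54 in wild type, 80.6% ± 0.27 in the CBFA2T2 knockout and 81.5% ± 3.24 in the PRDM14-labelled libraries (SD, n = 3 each). Fgfr3 had a share of 3.68% ± 0.54, 1.03% ± 0.01 and 1.05% ± 0.33, and Fgfr4 of 3.83% ± 0.69, 0.42% ± 0.17 and 1.39% ± 0.65.

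**Figure D4:**
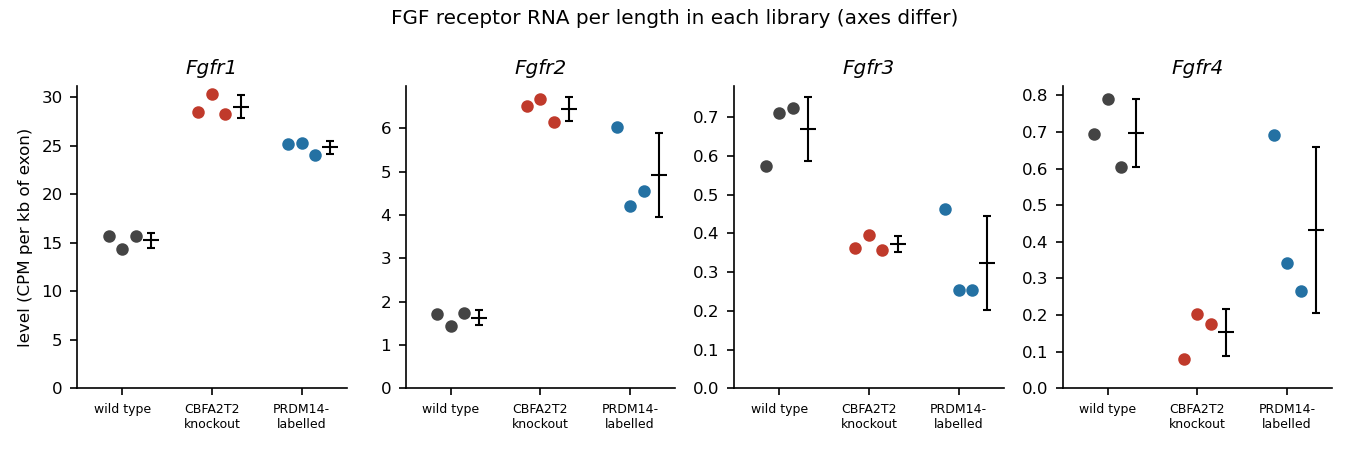
RNA level per length of each receptor (y axis, CPM per 1000 bases of exon, from 0, with a scale of its own per panel) in the 9 libraries; each point is 1 library and the black mark is the mean with its SD (n = 3). Fgfr1 and Fgfr2 are higher in every knockout-labelled library than in any wild-type library, Fgfr3 is lower, and Fgfr4 of PRDM14-labelled replicate 1 lies among the wild-type libraries.

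Among the ligands, per length, Fgf4 made up 75.6% ± 1.80 of the RNA in wild type, 68.1% ± 1.47 in the CBFA2T2 knockout and 81.1% ± 3.95 in the PRDM14-labelled libraries (SD, n = 3 each). Fgf17 came next in wild-type and PRDM14-labelled libraries, at 16.3% ± 1.70 and 11.6% ± 1.66. In the CBFA2T2 knockout Fgf17 (13.1% ± 1.59) and Fgf8 (14.7% ± 1.96) overlapped and did not differ beyond their spread. With the longest transcript as length they did not overlap there, at 12.2% ± 1.49 for Fgf17 and 15.8% ± 2.10 for Fgf8. Fgf8 was 0.61% ± 0.19 of ligand RNA in wild type. Fgf15 went from 5.66% ± 0.35 to 1.74% ± 0.27 and 1.38% ± 0.09.

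Of 16 other genes of the FGF family, not all of them secreted ligands, 8 passed the filter on low counts. Against wild type, each knockout-labelled group had 1 of these that fell, 1 that rose and 6 that did neither. Over all genes 19.6% and 15.3% fell and 18.9% and 14.6% rose. Fgf1, which binds all the receptors, went from 6.89 ± 0.35 CPM in wild type to 0.84 ± 0.55 in the CBFA2T2 knockout and 1.17 ± 1.15 in the PRDM14-labelled libraries (SD, n = 3 each). It fell by 3.10 and 2.56 on the log2 scale (adjusted p = 0.00134 and 0.00448), or by 3.71 without CBFA2T2 knockout replicate 3 and by 3.74 without PRDM14-labelled replicate 3. Fgf11, an intracellular member of the family that is not secreted, rose by 0.85 and 0.74 (adjusted p = 0.0174 and 0.0439). Its call was lost without CBFA2T2 knockout replicate 1 or wild-type replicates 1 or 2 in the first comparison (adjusted p = 0.0809, 0.05002 and 0.068). In the second it was lost without PRDM14-labelled replicates 1 or 2 (0.081 and 0.143), any 1 of the wild-type replicates (0.102, 0.146 and 0.0501) or CBFA2T2 knockout replicate 3 (0.0538), with limma-voom (0.0669) and in a fit on those groups alone (0.0516).

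Of 8 co-receptors and binding proteins of FGFs, 6 passed the filter. In the CBFA2T2 knockout 2 rose and 0 fell of these 6, and in the PRDM14-labelled libraries 1 rose and 0 fell, where 18.9% and 14.6% of all genes rose. Flrt3, a membrane protein that binds FGF receptors, was at 3.94, 2.50 and 3.66 CPM in wild type, 13.7, 11.3 and 12.8 in the CBFA2T2 knockout and 19.1, 8.99 and 14.6 in the PRDM14-labelled libraries. It rose by 1.88 ± 0.26 (log2, adjusted p = 0.00012) and 2.05 ± 0.26 (adjusted p = 9.05e-05). Fgfbp1, a secreted carrier of FGFs, rose in the CBFA2T2 knockout (1.23, adjusted p = 0.0147; 0.0554 without wild-type replicate 2 and 0.0526 with no filter on low counts). In the PRDM14-labelled libraries it missed the threshold (0.84, adjusted p = 0.0803), where it was called without replicate 3 (1.07, adjusted p = 0.0363) without CBFA2T2 knockout replicate 2 (0.85, adjusted p = 0.0431) or with the DESeq2 Wald test (adjusted p = 0.0127). Kl and Klb, the co-receptors for endocrine ligands such as Fgf15, did not pass the filter, at 0.221 and 0.149 CPM in wild type.

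Of 23 heparan sulfate proteoglycans and enzymes, all measured, the CBFA2T2 knockout had 9 that rose, 2 that fell and 12 past no threshold, and the PRDM14-labelled libraries had 6, 2 and 15. Among all genes 18.9% rose and 19.6% fell in the first comparison, and 14.6% rose and 15.3% fell in the second. Their median log2 fold change was 0.31 and 0.05. Sdc4, a cell-surface syndecan, rose by 0.88 and 1.00, and the sulfotransferases Hs6st1 (0.50 and 0.45) and Hs6st2 (1.35 and 1.08) rose in both. Gpc1, a glypican, went from 50.1 ± 1.64 CPM to 84.9 ± 7.81 and 63.0 ± 4.01 (SD, n = 3 each; log2 0.76 and 0.33). The second rise was not called without wild-type replicate 1 (0.31, adjusted p = 0.0551). Gpc1 was also the 1 gene of these that differed between the knockout-labelled groups, higher in the CBFA2T2 knockout (log2 0.43, adjusted p = 0.0427). That call was lost without CBFA2T2 knockout replicates 1 or 2 (adjusted p = 0.141 and 0.229), PRDM14-labelled replicates 1 or 3 (0.07 and 0.105) or any 1 of the wild-type replicates (0.0721, 0.0823 and 0.0755), and in a fit on those groups alone (0.145). Ext1, which builds the heparan sulfate chain, fell by 0.93 and 0.80.

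Of 20 adaptors and kinases, the CBFA2T2 knockout had 5 that fell, 3 that rose and 12 past no threshold, and the PRDM14-labelled libraries had 4, 1 and 15. Over all genes 19.6% fell and 18.9% rose in the CBFA2T2 knockout, and 15.3% and 14.6% in the PRDM14-labelled libraries. The adaptor Grb2 (log2 -0.45 in both) and Hras (-0.41 and -0.67) fell, and the exchange factor Sos2 (0.59 and 0.55) rose, in both. Araf rose in the CBFA2T2 knockout (0.35), and Map2k2 fell in the PRDM14-labelled libraries (-0.38). The median log2 fold change of the list was -0.10 and -0.09.

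Of 16 targets and feedback inhibitors of FGF/ERK signalling, 13 fell and 3 rose in the CBFA2T2 knockout, and in the PRDM14-labelled libraries 13 fell, 2 rose and 1 did neither. Among all genes 19.6% and 15.3% fell, and 18.9% and 14.6% rose. The inhibitor Spred1 went from 129 ± 4.97 CPM to 48.8 ± 3.14 and 51.9 ± 5.96, its relative Spred2 from 130 ± 7.96 CPM to 67.8 ± 10.3 and 62.8 ± 6.50, and the ETS factor Etv5 from 410 ± 12.2 to 128 ± 17.8 and 216 ± 40.0 (SD, n = 3 each). Etv5 was also lower in the CBFA2T2 knockout than in the PRDM14-labelled libraries (log2 -0.76, adjusted p = 0.0242), as was Fgf4. That call of Etv5 was lost without CBFA2T2 knockout replicates 1 or 2, PRDM14-labelled replicate 3, or wild-type replicates 2 or 3 (adjusted p = 0.0901, 0.0544, 0.0658, 0.0603 and 0.0533), and in a fit on those groups alone (0.107). The immediate early genes Egr1 (2.17 and 2.13) and Fos (0.98 and 0.84) rose in both groups on the log2 scale. Dusp5, an ERK phosphatase, rose in the CBFA2T2 knockout (0.61, adjusted p = 0.00398).

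Between the knockout-labelled groups, the libraries did not overlap for 8 of the 10 members, 4 higher and 4 lower in the CBFA2T2 knockout, where 17.8% of all genes did not overlap. Some were parted by little. In the CBFA2T2 knockout Fgf15 was at most at 3.5599 CPM, against at least 3.5645 in the PRDM14-labelled libraries, and Fgfr2 at least at 63.4, against at most 62.2. Besides the call for Fgf4, the largest differences were those of Fgf5, Fgf8 and Fgfr4 given above. PRDM14-labelled replicate 1 stood apart from replicates 2 and 3 for several members, with the highest Fgf10, Fgfr2, Fgfr3 and Fgfr4 and the lowest Fgf8 of its group. In the same library the ERK targets Etv4 and Spry4 were at 25.9 and 30.8 CPM, against 4.06 to 4.80 and 11.5 to 12.9 in replicates 2 and 3, and wild type had 180 to 203 and 129 to 133. These 2 genes, like Fos and Dusp5, were named after their values were seen. Some lists had no gene called between the knockout-labelled groups. There the lowest p was that of Fgf3 (log2 -1.31, adjusted p = 0.237) among the other FGF genes. It was that of Fgfbp1 (0.38, adjusted p = 0.619) among the co-receptors and Hras (0.26, adjusted p = 0.172) among the adaptors and kinases.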

How the data were processed

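Polyadenylated RNA of 9 libraries was counted per Ensembl gene by the authors, and the deposited values are raw counts, 1 library per file, with no normalization. Bowtie and the genome mm9 are named in the submitters' processing notes. The files themselves place genes on GRCm38: GENCODE M21 holds 32860 of the IDs, 78.1% of them with identical start and end. Which program counted reads, with which strand setting and which annotation, is not given in the sources used here. The labels describe strand-specific dUTP libraries.

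The analysis used edgeR 4.0.16 under R 4.3.3. The filter filterByExpr kept 16532 of 33233 genes, all 10 members among them. Libraries were scaled by TMM, and a robust quasi-likelihood model with 3 groups was fitted to all 9 libraries. Tests were two-sided, with Benjamini-Hochberg adjustment over all genes tested. The fit was tested on simulated data with known changes in 200 genes. Standard errors are the absolute log2 fold change divided by the square root of F. CPM were counts divided by the summed counts of kept genes multiplied by the TMM factor. Levels per length divide CPM by the union of a gene's GENCODE M21 exons in units of 1000 bases. Shares were compared by exact permutation tests over libraries. Without molecular identifiers, counting error sets only a floor to the true error.

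The members and gene lists were chosen with earlier results of these data known. All members were named, and up to 4 called genes per pathway list and comparison by lowest adjusted p. Genes of the marker lists were not named by this rule. Nearest patterns were the 3 genes of at least 5 CPM with the smallest root mean square difference of centred log2 CPM (with 0.5 added); 1 of these is not reported here. Groups and replicate numbers came from the labels. The alternatives were DESeq2 size factors, no low-count filter, a mean of at least 5 CPM, the DESeq2 1.42.0 Wald test, limma-voom (limma 3.58.1), a fit restricted to the pair of groups compared, a block for replicate number, the longest transcript as length, and leaving out each library. Leaving out libraries for the receptor shares, and all alternatives for genes that are not members, were added after the data were seen.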

Additional observations from a re-analysis of the deposited data

How the results depend on the processing

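Over the alternatives, 456 of the members' fold changes stayed on their side of the threshold, 8 lost the call, 7 gained it and 0 called changes reversed. For other named genes these were 1251, 28, 6 and 0. Between the knockout-labelled groups, 141 genes were called, against 328 with no filter on low counts, 602 with the DESeq2 Wald test, 24 in a fit on those groups alone and 392 with the replicate block. Leaving out 1 library at a time gave 24 to 597 genes and 1 to 3 members; the cause was not tested. For the CBFA2T2 knockout against wild type it gave 4800 to 6829 genes and 8 to 9 members, and for the PRDM14-labelled libraries 3386 to 4970 genes and 6 to 9 members. With a mean of at least 5 CPM, 6 and 7 members were called, as low members were then not tested. Fgf8 and Fgf10 passed this filter only through the group where each was highest. These means were 12.3 CPM in the CBFA2T2 knockout for Fgf8 and 8.92 in the PRDM14-labelled libraries for Fgf10. Their wild-type means were 1.03 and 2.88, so these counts give no further support to their rise.

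The replicate block gave 6556 and 5123 genes, with 9 members in each knockout-labelled group. Deviations from the group means of libraries with the same number correlated between -0.014 and 0.339. Libraries with different numbers correlated between -0.238 and 0.081. Not every library correlated best with its own number, which cannot settle whether the numbers mark a pairing, and the labels state none. For the Fgfr2 share, leaving out 1 library gave 8.68 to 9.15, 5.87 to 8.16 and 0.815 to 3.11 percentage points, and the longest transcript gave 9.99, 8.01 and 1.99. Fgf5, Fgf8, Fgf10, Fgfr3 and Fgfr4 rest on few counts in at least 1 group, which limits the precision of their fold changes. Fgf10 had 58, 32 and 31 counts in wild type.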

Other observations

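For each member with a mean of at least 5 CPM, up to 3 genes with the most similar pattern over the 9 libraries were taken from 10246 genes, by the root mean square difference of log2 CPM after centring each gene. Fgfr1 had the closest matches, Fut10 (0.0537), Fam102b (0.0625) and Rap2c (0.068). Fgf17 was nearest to Ciart (0.105), Slc1a3 (0.107) and Arhgef15 (0.135). Fgf4 was nearest to Tuba3a (0.134), Cmklr1 (0.16) and Pipox (0.161), and Fgf15 to Pdzd4 (0.134) and Slc39a14 (0.158). Fgfr2 was nearest to Ldhb (0.156), Gyg (0.187) and Sirpa (0.203). Fgf10 was nearest to Reep1 (0.271), Ildr1 (0.287) and Dppa3 (0.296), a gene of the early embryo and germ cells. Fgf8 had the loosest matches, Kif1a (0.418), Prr5l (0.428) and Krt18 (0.493), a keratin of simple epithelia whose log2 fold changes were 3.66 and 1.71. Fgf8 and Fgf10 reached a mean of 5 CPM only through the group where each was highest.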
